A study of Mus musculus with 4 samples.

Results

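The genes described here are 36 interferon-induced genes among the 25827 genes measured in mouse muscle progenitors (MPs). Every feature whose symbol was on the list was taken, and all 36 symbols were found. They were read as separate arms. The gamma arm held 23 genes that interferon-gamma is known to induce. They were immunity-related GTPases, guanylate-binding proteins, genes of antigen processing and the transcription factors Irf1 and Irf8. The type I arm held 13 genes, among them the Ifit family, Isg15 and Oasl2.

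Interferons are secreted proteins that put cells into a state of defence. Interferon-gamma binds a receptor made of Ifngr1 and Ifngr2, whose kinases start a signal that ends at a DNA element called GAS. Type I interferons act through Ifnar1 and Ifnar2 and bring Stat2 and Irf9 into a complex that binds another element, ISRE. The arms overlap, since many of these genes respond to both signals, and immune cells that enter injured muscle are a known source of interferons.

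RNA was counted in single cells from the injured muscle of 12-week-old mice, 6 days after an injection of cardiotoxin, which kills muscle fibres and sets off their regeneration. MPs had been sorted as α7-integrin+ cells without CD45, CD31 and Sca1. All mice carried Pax7Cre, a Cre recombinase driven by the muscle stem cell gene Pax7, so that a floxed allele is deleted in cells that have expressed Pax7 and not in other cells of the muscle. The 2 control libraries (Pax7Cre) carried Cre alone and the 2 miR-501KO libraries carried Cre with floxed miR-501, and each library pooled 3 mice. Replicate 1 of each genotype came from run 1 and replicate 2 from run 2. The microRNA itself was not among the genes counted, so its loss could not be checked here.

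The 4 libraries held between 73665012 and 117527749 UMIs (unique molecular identifiers, 1 per captured RNA molecule), and 10450 of 16519 barcodes had at least 5000 UMIs and 1000 genes. The median depth of these cells lay between 25254 and 34579 UMIs per library, and 3 to 7 cells per library had a barcode that another library also held. Pax7 or Myog, which encodes the differentiation factor myogenin, was detected in 9306 of 10450 cells (89.1%). Clusters led by macrophage genes, Ptprc (the gene of CD45) among them, still held 345 cells (3.30%). The library miR-501KO replicate 1 stood apart, with 738 of its 2833 cells (26.1%) in clusters that held almost no cell of another library. Among these, 659 cells formed 1 cluster of that library alone, in which 13 macrophage-like markers summed to 2558 CPM (counts per 1000000 UMIs) beside muscle fibre genes. Comparisons that use committed cells or all cells are therefore given with and without these clusters.

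Most members whose promoters could be read hold a core of ISRE or of GAS there, and fewer hold both. A selection of windows that hold a core is printed below. RefSeq windows on GRCm38.p6, from 250 bases before to 50 bases after the gene start, were matched for 28 of the 36 members. Iigp1, F830016B08Rik, Gbp4, Gbp6, Gbp8, Gbp9, Tap2 and Nlrc5 were not matched. The ISRE core was searched as GAAA, any 2 bases and GAAA again, and the GAS core as TTCNNNGAA, on both strands, and the cores may overlap. The ISRE core lay in 9 of 15 gamma arm windows (60%) and in 9 of 13 type I windows (69.2%), against 3.99% of the windows of all 27025 genes. The GAS core lay in 9 of 15 gamma arm windows (60%) and in 3 of 13 type I windows (23.1%), against 9.55% of all. Both cores lay in 6 of 15 and 2 of 13 windows (40% and 15.4%), against 0.614% of all. Neither core lay in 3 of 15 gamma arm windows (Ifi47, Psmb9 and Tap1) and 3 of 13 type I windows (Irf7, Irf9 and Oasl2), against 23530 of all 27025. A match is a run of letters in the window and was not measured as a bound site. In the windows below, each 60 bases and read 5′ to 3′ on the strand of the gene, capitals mark the matches to either core.
Igtp, chr11:58199491-58199550, + strand: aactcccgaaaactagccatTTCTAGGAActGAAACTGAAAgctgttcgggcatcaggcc
Irgm2, chr11:58214882-58214941, + strand: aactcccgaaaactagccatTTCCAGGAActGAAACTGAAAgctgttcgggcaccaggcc
Tgtp2, chr11:49064254-49064313, - strand: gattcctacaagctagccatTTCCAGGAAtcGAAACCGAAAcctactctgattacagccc
Gbp2, chr3:142620579-142620638, + strand: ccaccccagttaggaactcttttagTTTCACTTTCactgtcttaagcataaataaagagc
Irf1, chr11:53769898-53769957, + strand: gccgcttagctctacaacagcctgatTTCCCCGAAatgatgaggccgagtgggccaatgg
Isg15, chr4:156200856-156200915, - strand: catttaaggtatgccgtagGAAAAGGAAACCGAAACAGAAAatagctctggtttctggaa
Ifit1, chr19:34640769-34640828, + strand: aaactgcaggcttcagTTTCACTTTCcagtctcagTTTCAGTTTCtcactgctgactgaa
Ifit3, chr19:34583365-34583424, + strand: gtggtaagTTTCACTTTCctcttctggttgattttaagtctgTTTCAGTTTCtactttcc

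In Igtp, Irgm2 and Tgtp2, and in Tgtp1, the GAS core started 11 bases before the ISRE core, with the same arrangement in all 4 GTPase genes. The windows of Gbp2, Isg15, Ifit1 and Ifit3 showed ISRE cores alone, in part on the other strand, where the core reads TTTC, 2 bases and TTTC. The Irf1 window showed a GAS core alone. The Ifit3 stretch was letter for letter that of its neighbour Ifit3b at chr19:34607761-34607820, and the 2 genes are near-identical copies whose counts cannot be cleanly separated. The same holds for Tgtp1 and Tgtp2.

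Uncommitted progenitors, defined as cells with a Pax7 UMI and no Myog UMI, were taken as the reference for levels. Pax7Cre replicate 1 held 1067 such cells, Pax7Cre replicate 2 held 760, miR-501KO replicate 1 held 814 and miR-501KO replicate 2 held 1054. Values of the 4 libraries are given in this order throughout. Levels are CPM of all UMIs of a gate, which is a share of its RNA, so fewer cells with a transcript and less of it per cell cannot be told apart in a sum. Since 3′ UMI counts are not scaled by gene length, levels are compared between cells and not between genes.

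The immunity-related GTPases, which attack the membranes around intracellular pathogens, included Iigp1 at 32.9, 57.4, 107 and 70.5 CPM. Iigp1 was lowest in Pax7Cre replicate 1 and highest in miR-501KO replicate 1, and both miR-501KO libraries lay above both controls. F830016B08Rik, a predicted GTPase of the same group, followed the same order at 11.5, 24.6, 35.4 and 26.8 CPM. The regulatory GTPase Irgm1 lay at 16, 26.2, 36.9 and 27.8 CPM. Its relative Irgm2 lay between 5.01 and 11.9 CPM, Igtp between 3.96 and 7.18 CPM and Ifi47 between 4.47 and 6.98 CPM. Tgtp2 reached 0.483 to 1.55 CPM. Tgtp1 was at 0 UMIs in both Pax7Cre libraries, where a count of 0 allows up to 0.0906 and 0.112 CPM, and at 4 and 1 UMIs in the miR-501KO libraries. This floor covers counting error only.

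Guanylate-binding proteins, a second family of GTPases that coat pathogens, were represented by 8 genes. Gbp7 lay at 20.2, 26.5, 41.3 and 29.0 CPM. Gbp2 lay at 16.7, 25.1, 29.5 and 27.0 CPM, again lowest in Pax7Cre replicate 1 and highest in miR-501KO replicate 1. Gbp3 ranged from 7.46 to 17.3 CPM, Gbp5 from 3.90 to 8.94 CPM and Gbp9 from 3.61 to 5.01 CPM. Gbp4, Gbp6 and Gbp8 stayed under 2 CPM in every library. Gbp9 was highest in Pax7Cre replicate 1, Gbp4 and Gbp8 were highest in Pax7Cre replicate 2, and the other 5 genes in miR-501KO replicate 1.

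Antigen processing was the steadiest group, and its sum lay at 83.0, 82.3, 97.3 and 88.0 CPM. Psmb8 and Psmb9, subunits of the immunoproteasome, ranged from 25.1 to 29.4 and from 12.3 to 15.5 CPM. The peptide transporter genes Tap1 and Tap2 ranged from 12.3 to 18.2 and from 29.6 to 33.3 CPM. Nlrc5, an activator of MHC class I genes, stayed at or under 0.997 CPM. Among transcription factors, Irf1 lay at 82.1, 125, 110 and 119 CPM and Irf8 at 7.98, 12.5, 13.6 and 15.9 CPM, both lowest in Pax7Cre replicate 1.

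In the type I arm, the Ifit genes encode proteins that bind foreign RNA. Ifit1 lay at 8.67, 10.2, 14.7 and 7.68 CPM and Ifit3 at 5.59, 4.58, 6.54 and 3.15 CPM. Both were lowest in miR-501KO replicate 2 and highest in miR-501KO replicate 1, so the genotypes overlapped. Ifit2 ranged from 5.65 to 6.63 CPM and Ifit3b from 1.25 to 2.39 CPM. Isg15, a ubiquitin-like modifier, lay at 44.7, 37.8, 82.1 and 44.0 CPM, with 1 high library and 3 similar ones. Bst2, which tethers budding virions, showed that pattern at 64.5, 62.9, 101 and 68.8 CPM, and so did Oasl2 at 12.9, 13.6, 27.8 and 15.3 CPM. Rsad2, an antiviral enzyme, ranged from 4.06 to 10.1 CPM, and the RNA sensor Ifih1 from 11.1 to 19.9 CPM. Ifitm3, a membrane protein that blocks viral entry, ranged from 784 to 973 CPM and would make up most of a sum, so sums of this arm leave it out. The transcription factors Stat2, Irf7 and Irf9 ranged from 11 to 21, from 6.37 to 10.7 and from 15.8 to 27.4 CPM.

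**Figure D1:**
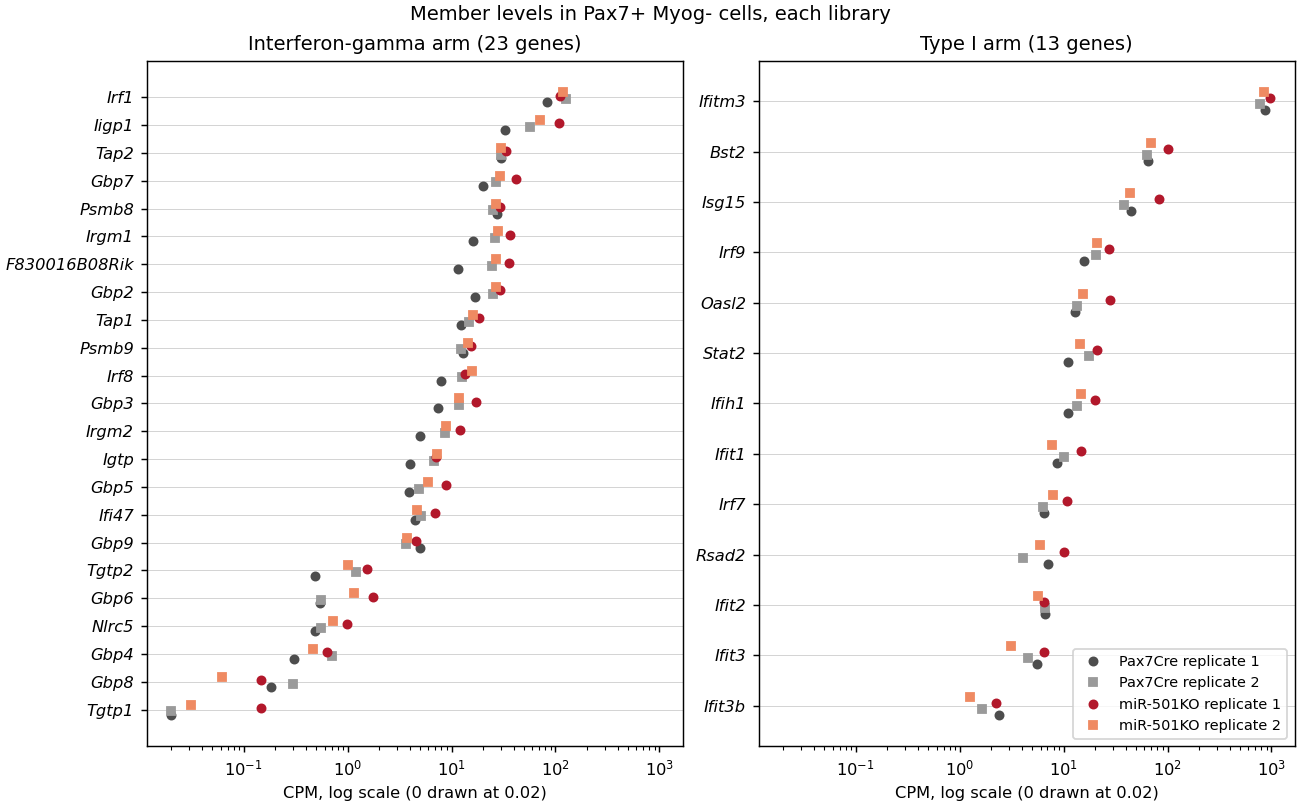
Level of each member in Pax7+ Myog- cells in CPM on a log scale, with the gamma arm left and the type I arm right. Each point is 1 library (0 is drawn at 0.02). miR-501KO replicate 1 was highest for 17 of 23 gamma arm and 11 of 13 type I genes, where 48.0% of all genes at 1 CPM or more were highest in that library.

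The first comparison asked how the members differ between uncommitted cells and committed cells, the latter with a Myog UMI and no Pax7 UMI (872, 335, 918 and 455 cells). Most GTPases and guanylate-binding proteins that changed were lower in committed cells, and Irf1 with them. In edgeR's quasi-likelihood test with the library as a block and Benjamini-Hochberg adjustment over all genes, 9 of the 22 gamma arm members tested were lower and 3 higher. Of the 13 type I members, 6 were lower and 2 higher. This contrast called 53.1% of all 14687 genes (25.8% lower and 27.3% higher), so the number called lay near the background in both arms (12 of 22 and 8 of 13), and the share called lower lay above it. Without the block for library, 7 gamma arm members were lower and 3 higher and 3 type I members were lower and 1 higher, against 25.3% and 27.3% of all genes. With gates on thinned cells 14 and 6 members were lower and 2 and 0 higher, against 24.4% and 25.3%. The median log2 fold change was -0.36 over the gamma arm and -0.41 over the type I arm, against -0.01 over all genes.

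F830016B08Rik lay at 2.68, 7.25, 6.87 and 6.12 CPM in committed cells, below every value in uncommitted cells, and fell by 1.97 ± 0.10 on the log2 scale (SE, adjusted p = 5.4e-06). Iigp1 lay at 14.1, 9.61, 33.1 and 26.3 CPM and fell by 1.57 ± 0.19 (adjusted p = 0.000374), lower in 4 of 4 libraries. The range of Iigp1 in committed cells just exceeded the lowest uncommitted value. Gbp5 lay at 1.26, 1.88, 2.87 and 1.84 CPM and fell by 1.46 ± 0.14 (adjusted p = 0.000117). Gbp2 was at 8.36, 9.68, 11.6 and 8.48 CPM and fell by 1.22 ± 0.12 (adjusted p = 0.000116). Gbp7, at 7.98 to 16.4 CPM, fell by 1.10 ± 0.11, and Irf1, at 49.9 to 60.2 CPM, fell by 0.83 ± 0.10 (adjusted p = 0.000118 and 0.000337). For F830016B08Rik, Gbp2, Gbp5, Gbp7 and Irf1 no committed value reached an uncommitted value. Gbp3, Tap1 and Irgm1 were the remaining gamma arm members called lower.

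A few gamma arm genes went the other way. Gbp4 rose from between 0.302 and 0.707 CPM to between 1.18 and 1.78 CPM (log2 fold change 1.62 ± 0.32, adjusted p = 0.00366), higher in 4 of 4 libraries. Gbp8 was at 17, 4, 20 and 8 UMIs in committed cells (log2 fold change 1.86 ± 0.54, adjusted p = 0.0203), higher in 3 of 4 libraries. Igtp went from between 3.96 and 7.18 CPM to between 6.34 and 11.2 CPM (0.59 ± 0.17, adjusted p = 0.0191), also higher in 3 of 4 libraries. The calls of Gbp8 and Igtp were lost without Pax7Cre replicate 1 and without miR-501KO replicate 1, and that of Gbp8 also without miR-501KO replicate 2.

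In the type I arm, Ifih1 showed the strongest decrease, from between 11.1 and 19.9 CPM to 5.13, 4.32, 9.92 and 6.58 CPM (fell by 1.08 ± 0.14, adjusted p = 0.000431). Ifit1, at 2.72, 3.07, 13.8 and 4.34 CPM, fell by 0.89 ± 0.30 (adjusted p = 0.0357). Oasl2, Stat2 and Irf9 fell by 0.71 ± 0.14, 0.68 ± 0.10 and 0.65 ± 0.10 (adjusted p = 0.00321, 0.00104 and 0.00139). Each of them was lower in 4 of 4 libraries, as was Ifitm3 (fell by 0.51 ± 0.18, adjusted p = 0.0406). The calls of Ifit1 and Ifitm3 were lost without either Pax7Cre library, and that of Ifitm3 also without miR-501KO replicate 2. Irf7 and Bst2 were called higher by 0.92 ± 0.15 and 0.59 ± 0.13 (adjusted p = 0.00167 and 0.00728), in 4 of 4 libraries.

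Cells of other types moved with these values. Non-myogenic clusters held 42 of 3695 uncommitted cells (1.14%) and 236 of 2580 committed cells (9.15%). The 13 macrophage-like markers summed to 125 to 316 CPM in the former and to 908 to 2145 CPM in the latter. Without the non-myogenic clusters, 13 gamma arm members were lower and 3 higher, and 7 type I members were lower and 0 higher, against 25.9% and 26.4% of all 14261 genes. Irf7 then lay at 2.93, 5.97, 17.1 and 9.82 CPM in committed cells (log2 fold change 0.28 ± 0.30, adjusted p = 0.471), and Bst2 at a log2 fold change of 0.43 ± 0.19 (adjusted p = 0.0887). The decreases of Gbp5 and Iigp1 grew to 2.49 and 2.04 on the log2 scale, and Irf8, a factor of myeloid cells, fell by 1.27 ± 0.20 (adjusted p = 0.00162) where it had shown no call. In miR-501KO replicate 1 the markers still summed to 983 CPM, and they reached 40.9 CPM once the single-library clusters were left out as well. With both left out, 15 gamma arm and 7 type I members were lower and 3 and 0 higher, against 32.6% and 32.4% of all genes. 

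**Figure D2:**
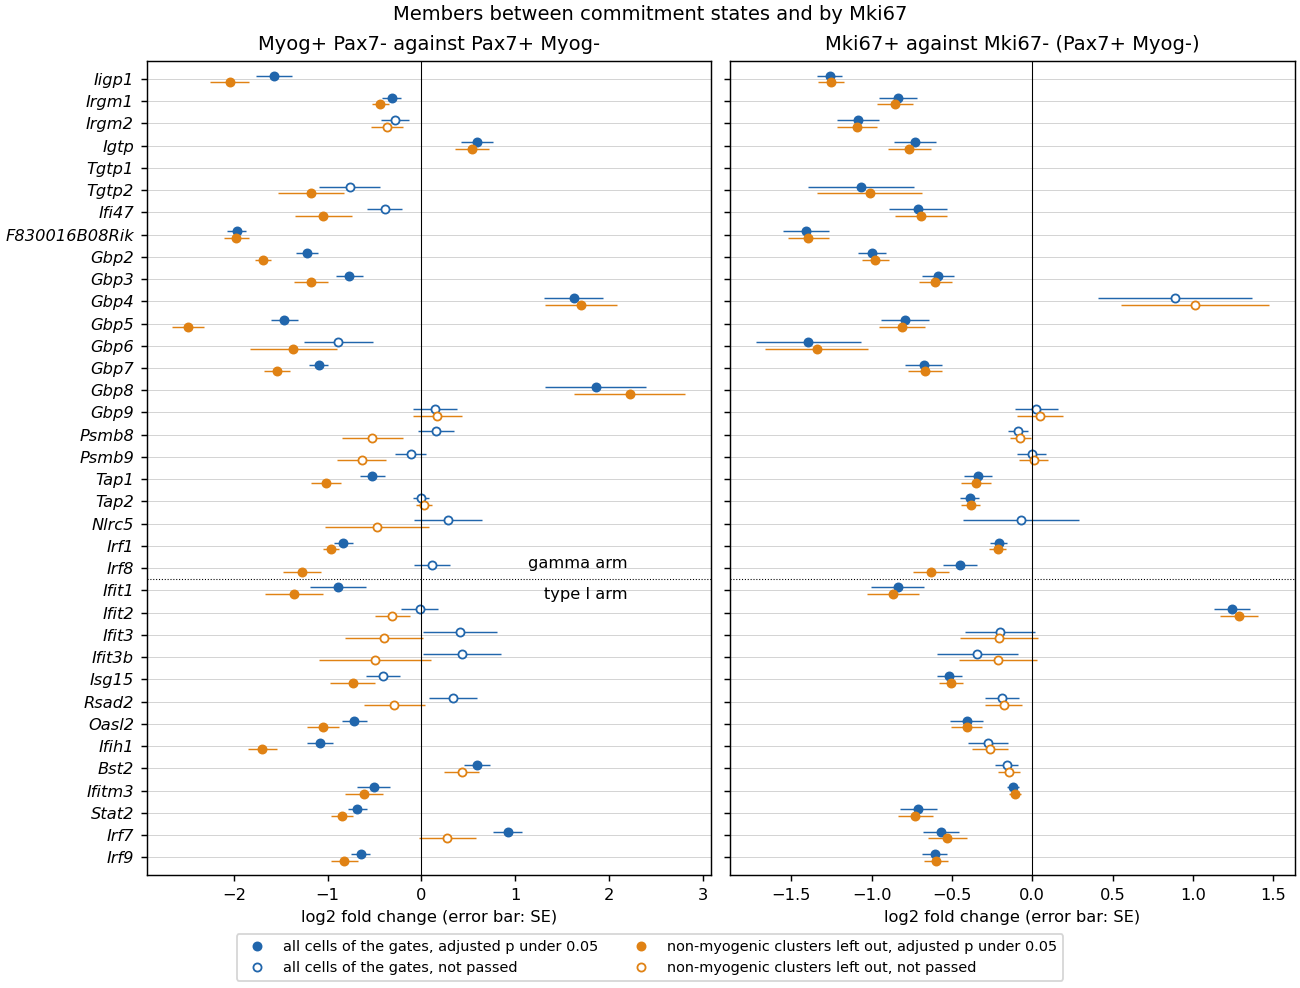
Log2 fold change of each tested member with its SE, for committed against uncommitted cells (left) and for Mki67+ against Mki67- uncommitted cells (right). Filled points passed an adjusted p of 0.05 in edgeR, blue for all cells of the gates and orange without non-myogenic clusters. Most decreases deepened in the left panel when non-myogenic clusters were left out, and the right panel hardly moved.

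The second comparison split uncommitted cells by Mki67, a gene expressed in cycling cells, into 2249 Mki67- and 1446 Mki67+ cells. Gamma arm genes were lower in the Mki67+ cells almost throughout. Of 21 members tested, 16 were lower and 0 higher, and of 13 type I members 7 were lower and 1 higher (edgeR, library as a block). Over all 13371 genes, 52.3% were called, 25.2% lower and 27.1% higher. The median log2 fold change was -0.67 over the gamma arm and -0.34 over the type I arm, against -0.01 over all genes. The Mki67+ cells were also deeper, with a median of 37336 UMIs against 25261. When cells were thinned to 5000 UMIs before gating, 8 of 20 gamma arm members were lower and 1 higher and 4 type I members were lower and 1 higher, against 22.3% and 23.1% of all genes. Without the block 12 gamma arm and 4 type I members were lower, against 15.5% of all genes, and 19.4% were higher.

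Iigp1 lay at 47.3, 72.0, 164 and 103 CPM in Mki67- cells and at 20.6, 38.9, 55.0 and 38.3 CPM in Mki67+ cells, so that it fell by 1.26 ± 0.08 on the log2 scale (adjusted p = 2.1e-08). F830016B08Rik went from 19.3, 31.2, 57.4 and 36.5 CPM to 4.84, 16.3, 15 and 17.2 CPM and fell by 1.41 ± 0.14 (adjusted p = 2.7e-06). The 2 genes thus decreased in all 4 libraries, and for F830016B08Rik no Mki67+ value reached a Mki67- value. Gbp2 went from 21.9, 31.5, 39.3 and 39.4 CPM to 12.3, 17.0, 20.5 and 14.6 CPM (fell by 1.0 ± 0.09, adjusted p = 7.1e-07). Irgm2 went from 7.31, 10.1, 17.4 and 12.5 CPM to 3.04, 6.91, 6.89 and 5.03 CPM (fell by 1.08 ± 0.13, adjusted p = 1.2e-05). Both were again lower in 4 of 4 libraries without overlap. Gbp6 and Tgtp2, at no more than 2.46 CPM, fell by 1.39 ± 0.33 and 1.07 ± 0.33 (adjusted p = 0.00291 and 0.0156), and the call of Tgtp2 was lost without either miR-501KO library.

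Stat2 and Irf9, parts of the complex that binds ISRE, were lower in Mki67+ cells, with log2 fold changes of -0.71 ± 0.11 and -0.61 ± 0.08 (adjusted p = 0.000167 and 1.9e-05). Ifit1 fell by 0.84 ± 0.17, Irf7 by 0.57 ± 0.11, Isg15 by 0.52 ± 0.08 and Oasl2 by 0.41 ± 0.10 (adjusted p = 0.000899, 0.000902, 0.000102 and 0.00491). The decreases of these genes held in 4 of 4 libraries. On thinned cells the calls of Irf7, Isg15 and Oasl2 were lost. Ifit2 alone in its family rose, from 4.11, 4.07, 3.69 and 3.45 CPM to 8.77, 9.86, 9.10 and 7.83 CPM (log2 fold change 1.24 ± 0.11, adjusted p = 7.9e-07). Its values in Mki67+ cells all lay above those in Mki67- cells, and the 4 libraries lay close together. Ifit3 and Ifit3b had log2 fold changes of -0.20 and -0.34 that did not pass.

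Cell classes drawn without the members gave a wider view. Clusters were made with the interferon lists left out and were named from marker genes as quiescent-like (1832 cells), cycling-like (2597) and committed-like (1384), beside mural-like, macrophage-like, Schwann-like and fibroblast-like clusters. The gamma arm summed to 526, 654, 955 and 859 CPM in quiescent-like cells, to 208, 295, 277 and 269 CPM in cycling-like cells and to 134, 140, 197 and 154 CPM in committed-like cells. The classes did not overlap in this sum. The largest cluster, of 2395 cells, raised too few markers to be named and stands outside these classes, as do some smaller clusters. The gamma arm summed to 229, 308, 401 and 269 CPM in it and the type I arm without Ifitm3 to 163, 168, 381 and 184 CPM. The type I arm without Ifitm3 summed to 205, 266, 453 and 260 CPM, to 138, 166, 212 and 152 CPM and to 111, 101, 233 and 127 CPM in the same classes, which did overlap. Among the 31 members at 1 CPM or more, 29 had their highest mean of these 3 classes in quiescent-like cells (93.5%), against 41.4% of 12195 genes at that level. The lowest mean was in committed-like cells for 23 of them (74.2%), against 44.1% of genes. These counts are a description, since classes were clusters of the same cells. Macrophage-like markers summed to between 16.8 and 43.4 CPM in all 3 classes.

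Iigp1 spanned 112 to 239 CPM in quiescent-like, 15.4 to 37.9 CPM in cycling-like and 5.10 to 17.7 CPM in committed-like cells. Igtp did not follow this order and was at 6.36 to 13.5 CPM in quiescent-like, 2.27 to 4.23 CPM in cycling-like and 7.98 to 11.6 CPM in committed-like cells. Irgm1 and Irgm2 also had their lowest mean of the 3 in cycling-like cells, as did 5 type I members (Ifit3, Ifit3b, Bst2, Stat2 and Irf7). Gbp4 and Gbp8 were the only members with their lowest mean of the 3 in quiescent-like cells. Psmb8, of the immunoproteasome, lay at 23.1 to 28.6 CPM in quiescent-like and 19.8 to 22.1 CPM in cycling-like cells, lower in 4 of 4 libraries without overlap, and between 5.69 and 9.56 CPM in committed-like cells.

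Among all 7 classes, the highest sums of both arms lay outside the myogenic cells. The gamma arm reached 859 to 1782 CPM in mural-like cells, the contractile cells of vessel walls, and 806 to 1397 CPM in macrophage-like cells. F830016B08Rik was the 1 member with its highest mean in quiescent-like cells, at 43 to 90 CPM. Iigp1 peaked in mural-like cells at 160 to 527 CPM and lay at 3.85 to 66.3 CPM in macrophage-like and 0 to 24.6 CPM in Schwann-like cells. Antigen processing was highest in macrophage-like cells, with Psmb8 at 214 to 305 CPM, and so was Irf7 at 82 to 169 CPM. Irf8 was at 178 to 226 CPM in macrophage-like and at 91.9 to 222 CPM in mural-like cells. The Ifit genes had their highest means in Schwann-like cells, where Ifit3 ranged from 18.1 to 143 CPM, and Irgm1 and Gbp7 were high there too (77.7 to 218 and 75.1 to 175 CPM). Free RNA between droplets was not measured, and some of these classes held as few as 11 cells in a library.

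**Figure D3:**
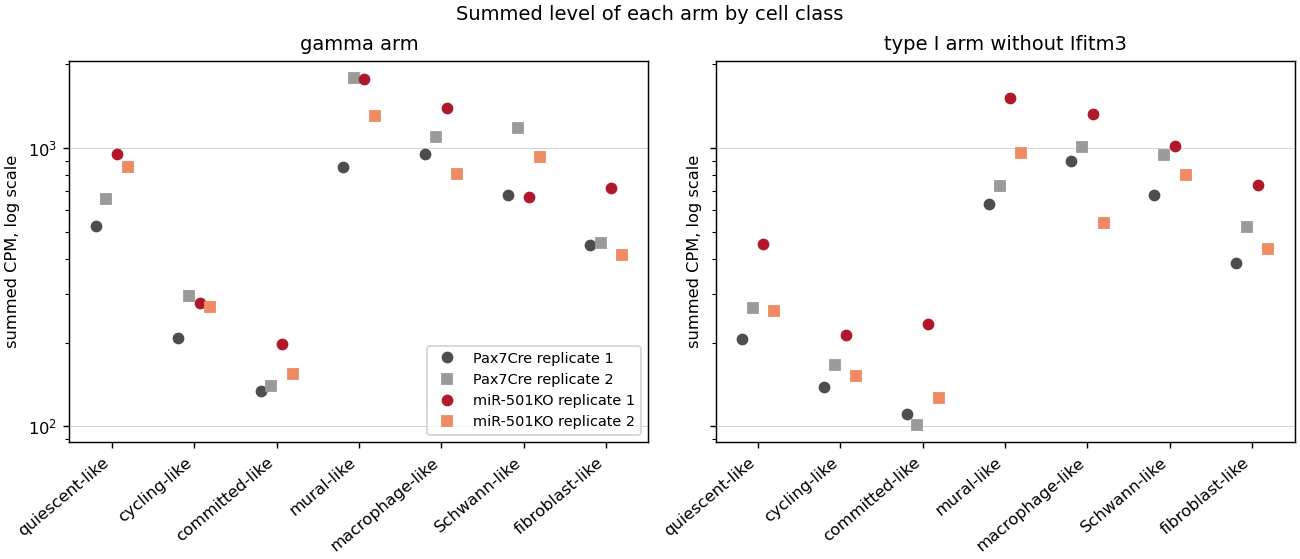
Summed CPM of the gamma arm (left) and of the type I arm without Ifitm3 (right) in 7 cell classes, log scale, 1 point per library. Quiescent-like cells lay above cycling-like and committed-like cells for the gamma arm in all 4 libraries. Mural-like cells had the highest mean of the 7 classes for both arms, narrowly so for the type I arm. Macrophage-like cells lay above them in Pax7Cre replicate 1 for the gamma arm and in both Pax7Cre libraries for the type I arm.

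The members were spread unevenly over cells. With each cell thinned to 5000 UMIs, at least 1 gamma arm UMI was found in 63.4%, 74.1%, 75.1% and 72.0% of uncommitted cells, with 95% Wilson intervals between 60.5 and 77.9% that cover counting error only. For the type I arm without Ifitm3 the shares were 43.1%, 43.0%, 59.1% and 45.8%. No class here is known to lack these genes, so no background share could be set. Among Mki67- uncommitted cells thinned to 10000 UMIs (572, 468, 457 and 584 cells), the 10% of cells with the most UMIs of an arm held 44.4%, 48.2%, 47.8% and 51.8% of its UMIs for the gamma arm. For the type I arm that share was 58.5%, 60.7%, 52.3% and 58.3%. Cells were ranked by the same UMIs, so counting noise alone puts this share above 10%, and more so at a lower mean. The means were 3.78 to 7.67 UMIs per cell for the gamma arm and 2.09 to 4.08 for the type I arm. No expected share was set, so the arms are not compared by it. The Fano factor (variance over mean, 1 for counting noise alone) was 9.83, 18.2, 19.6 and 19.0 for Iigp1, against 1.08 to 1.10 for the median gene. The factor can rise with the level of a gene, and the median gene is not matched to Iigp1 for level. Within the quiescent-like clusters alone, the top 10% of cells still held 40.5 to 50.9% of gamma arm and 42.8 to 63.3% of type I UMIs.

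Cells high in a member tended to be high in others, of the same arm or of the other. Over the same cells, Iigp1 and Gbp2 correlated at Pearson's r of 0.381, 0.463, 0.511 and 0.507. Ifit1 and Isg15 correlated at 0.830, 0.399 and 0.729 in the 3 libraries where both had enough UMIs. Iigp1 and Isg15, of different arms, correlated at 0.213, 0.352, 0.396 and 0.228. The median r between gene pairs was 0.112 to 0.228 within the gamma arm, 0.226 to 0.301 within the type I arm and 0.0855 to 0.228 between the arms, so the gamma arm pairs did not stand above pairs across the arms in every library. The summed arms correlated at Pearson's r of 0.378 to 0.630 and Spearman's rho of 0.311 to 0.391. Among these cells, those of the quiescent-like clusters alone gave Iigp1 and Isg15 an r of 0.0300, 0.362, 0.487 and 0.178. The summed arms correlated there at Pearson's r of 0.225, 0.522, 0.712 and 0.401, and the median r between the arms was 0.0528 to 0.240. These are descriptions over cells that share a library and a depth, and cells are not replicates.

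**Figure D4:**
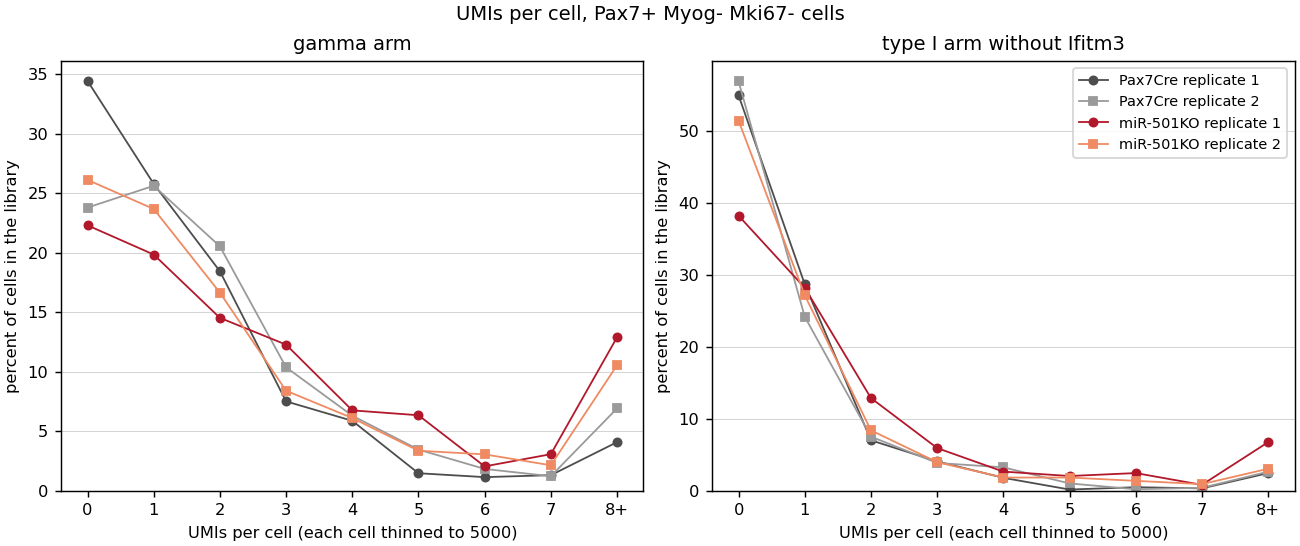
Share of Mki67- uncommitted cells with a given number of UMIs of the gamma arm (left) and of the type I arm without Ifitm3 (right), each cell thinned to 5000 UMIs, 1 line per library. Most cells held 0 to 2 UMIs, and a tail at 8 or more was largest in miR-501KO replicate 1 for both arms.

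The third comparison asked whether the members differ between genotypes. Levels were mostly higher in miR-501KO, yet no member passed in uncommitted, committed or all cells in edgeR over 2 libraries against 2. In uncommitted cells 1 of 13873 genes was called (0.00721%), and 3.11% had an unadjusted p under 0.05, as did 10 of 21 gamma arm and 6 of 13 type I members. DESeq2 called 9 genes (0.0432% higher and 0.0216% lower) and 0 members. The log2 fold change was above 0 for 20 of 21 gamma arm members (median 0.48) and for 10 of 13 type I members (median 0.34), against a median of 0.00 over all genes. Both miR-501KO libraries lay above both controls for 16 of the 31 members at 1 CPM or more (51.6%), against 17.0% of 12261 genes. Members were chosen with earlier results of these data known, and most were highest in the same library, so such counts are descriptions.

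In uncommitted cells the members with the lowest p-values, none of which passed, were Iigp1 (log2 fold change 0.91 ± 0.21, adjusted p = 0.410), Gbp6 (1.31 ± 0.39, adjusted p = 0.839) and Gbp7 (0.52 ± 0.16, adjusted p = 0.917). The labels tie each replicate number to a run. With the run as a block in edgeR, Iigp1 (0.94 ± 0.19, adjusted p = 0.00042) and F830016B08Rik (0.80 ± 0.18, adjusted p = 0.00415) were called. That fit called 0.555% of all genes higher and 0.108% lower. The fold change and SE of Iigp1 stayed near those without the block, and the p-values of the blocked fit rest largely on variance pooled over genes. The run 1 minus run 2 differences of the genotypes correlated at -0.221 over genes, so libraries that share a run number did not deviate together in these cells, and whether the numbers mark a shared batch was not settled. Without Pax7Cre replicate 2, 4 gamma arm members were called, and without miR-501KO replicate 2, 4 gamma arm and 2 type I members. Over all genes, 0.465% and 0.125% were called higher and lower without the former library, and 0.679% and 0.106% without the latter. Such a fit has 1 library in a group, which is assumed to vary like the other group.

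The size of the difference depended on which libraries were set against each other. In run 1 the gamma arm sum was 0.82 higher on the log2 scale in miR-501KO, and in run 2 it was 0.08 higher. Across runs it was 0.33 higher in miR-501KO replicate 1 than in Pax7Cre replicate 2, and 0.57 higher in miR-501KO replicate 2 than in Pax7Cre replicate 1. For the type I arm without Ifitm3 the values were 0.74 and 0.07 within runs and 0.73 and 0.09 across them, with the larger value in miR-501KO replicate 1 each time. Of the 31 members at 1 CPM or more, 28 were higher in miR-501KO in run 1 and 22 in run 2, where 68.0% and 45.9% of all genes were higher. Without miR-501KO replicate 1 the median over members was 0.30 for the gamma arm and 0.05 for the type I arm. Among uncommitted cells, the gap of the gamma arm was wider in Mki67- cells, where it summed to 350, 474, 697 and 567 CPM. In Mki67+ cells the genotypes overlapped at 260, 360, 381 and 330 CPM. The difference between these gaps was not tested.

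In committed cells no gene of 13717 was called by edgeR, 2.81% had an unadjusted p under 0.05, and 9 of 21 gamma arm and 10 of 13 type I members did. DESeq2 called 3 genes higher (0.0219%), and Iigp1 was 1 of them (log2 fold change 1.35 ± 0.29, adjusted p = 0.0160). Iigp1 (1.34 ± 0.24), Gbp3 (1.04 ± 0.19) and Gbp7 (0.89 ± 0.17) had the lowest p-values in edgeR and did not pass (adjusted p = 0.966 for each). Both miR-501KO libraries lay above both controls for 20 of 31 members (64.5%), against 14.0% of genes, and for 22 of 31 outside the single-library clusters, against 20.5%. The median log2 fold change was 0.71 for the gamma arm and 1.10 for the type I arm, and without miR-501KO replicate 1 it was 0.35 and 0.57. Outside the single-library clusters, which left 469 of the 918 committed cells of miR-501KO replicate 1, the medians were 0.64 and 1.01, and 10 of 21 gamma arm and 11 of 13 type I members had an unadjusted p under 0.05, against 2.42% of genes. Iigp1, Gbp3 and Gbp7 then stood at 1.34 ± 0.24, 1.11 ± 0.21 and 1.01 ± 0.19 (edgeR, adjusted p = 0.9998 for each). With non-myogenic clusters left out as well, the medians were 0.50 and 0.87, and 5 of 18 and 7 of 12 members had such a p, against 3.25% of genes. Ifit3 illustrates the spread, at 3.77, 2.37, 16.6 and 6.31 CPM, and at 18.2 CPM in miR-501KO replicate 1 outside those clusters. Macrophage-like markers were highest in miR-501KO replicate 1 in this gate and lowest in miR-501KO replicate 2, and their part in the result was not tested. Over all cells 0 of 15725 genes passed in edgeR, with 2.80% under an unadjusted p of 0.05 and 8 of 22 gamma arm and 5 of 13 type I members among them. Iigp1, Gbp7 and Igtp had the lowest p-values there (log2 fold changes 0.93 ± 0.21, 0.55 ± 0.16 and 0.54 ± 0.16, adjusted p = 0.9998 for each). Without the single-library clusters 7 of 22 and 7 of 13 members had an unadjusted p under 0.05, against 2.51% of genes, and none passed. DESeq2 called 13 genes over all cells (0.07% higher and 0.0127% lower), Iigp1 among them (adjusted p = 0.0125).

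**Figure D5:**
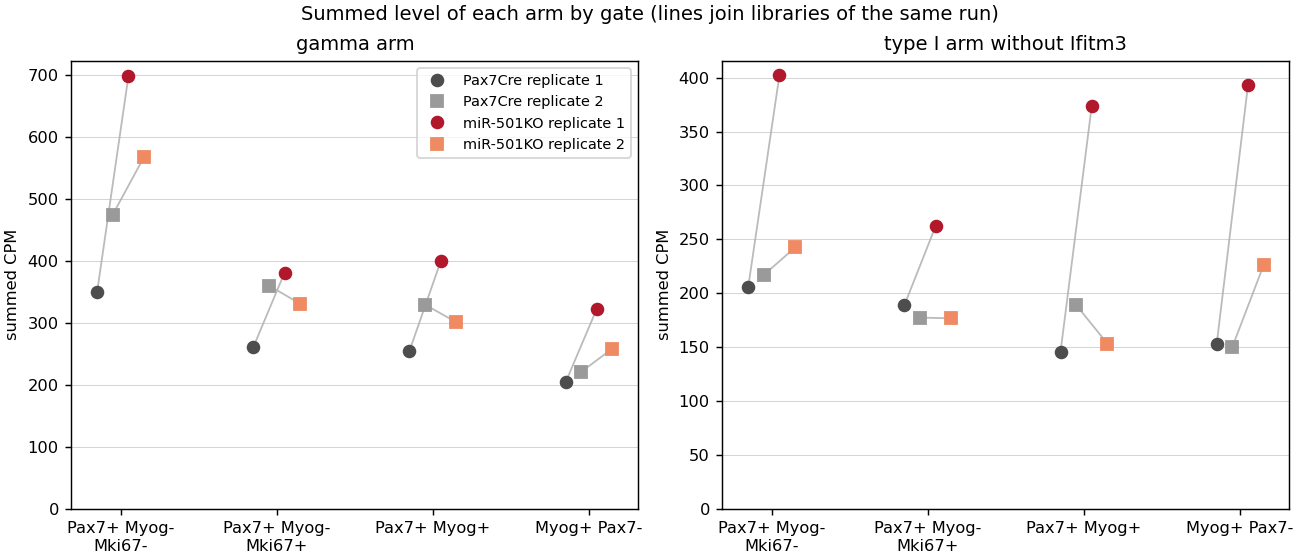
Summed CPM of each arm in 4 gates, 1 point per library, with lines joining the libraries of the same run. miR-501KO replicate 1 was highest in every gate for both arms, and the run 2 libraries lay closer together than the run 1 libraries.

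Whether the genotype difference itself differs between committed and uncommitted cells was tested as an interaction with the library as a block. No gene of 14687 was called by edgeR, 3.38% had an unadjusted p under 0.05, and DESeq2 called 8 genes (0.0272% in each direction) and 0 members. In the type I arm 10 of 13 members had an unadjusted p under 0.05, all with a larger miR-501KO excess in committed cells, and in the gamma arm 3 of 22 did. Ifit3 (log2 difference 2.02 ± 0.30, adjusted p = 0.561), Ifit3b (2.08 ± 0.37, adjusted p = 0.649) and Ifit1 (1.39 ± 0.33, adjusted p = 0.913) had the lowest p-values and did not pass. The median log2 difference was 0.70 for the type I arm and 0.34 for the gamma arm, against 0.00 over all genes. The counts of unadjusted p-values depended on the cells. Without non-myogenic clusters 7 of 22 gamma arm and 9 of 13 type I members had one under 0.05 (4.95% of all genes), without single-library clusters 4 and 9 (3.66%), and without both kinds 5 and 7 (4.60%). The medians without both kinds were 0.19 for the gamma arm and 0.64 for the type I arm, and no member passed in these fits. Without single-library clusters Ifit3 and Ifit3b stood at 1.98 ± 0.27 and 2.07 ± 0.32 (edgeR, adjusted p = 0.983 for both). Among the fits that left out 1 library, type I members were called only where a Pax7Cre library was left out. No gene was called without miR-501KO replicate 1 or without miR-501KO replicate 2. Each of these fits has 1 library in a group, which is assumed to vary like the other group.

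Other genes of the pathway were read from lists. Their counts stand against the shares over all genes given above, of 27.3% higher and 25.8% lower with commitment and 27.1% higher and 25.2% lower in Mki67+ cells. Of 10 ligand genes, Ifng was at 0 to 0.0936 CPM in uncommitted cells and the other 9 were at 0 UMIs in all 4 libraries. Among 7 receptors and kinases, most UMIs came from Jak1, Ifngr1 and Ifngr2 (means of 149, 73.2 and 49.2 CPM). Of these 7 genes 4 were lower in committed cells and 6 lower in Mki67+ cells, with 0 higher. Jak1, a kinase that both receptors use, fell by 0.88 ± 0.08 on the log2 scale with commitment (adjusted p = 0.000101). Among 7 inhibitors, with most UMIs from Socs3, Ptpn11 and Ptpn2, 1 was higher and 2 lower with commitment and 2 lower in Mki67+ cells. MHC class I presentation, with most UMIs from Calr, Pdia3 and B2m, had 5 of 16 genes higher and 5 lower with commitment, near the share over all genes in each direction, and 2 were higher and 7 lower without non-myogenic clusters. In Mki67+ cells 3 of its 15 tested genes were higher and 4 lower. A list of further interferon-stimulated genes, with most UMIs from Eif2ak2, Ifi204 and Ifi35, had 9 of 27 genes higher and 9 lower with commitment, also not far from those shares, and 2 of 26 higher and 11 lower without non-myogenic clusters, where 26.4% and 25.9% of all genes were. In Mki67+ cells 1 of 24 was higher and 9 lower.

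Of 3 tested chemokines that interferon induces, 2 were higher and 1 lower in Mki67+ cells, where 27.1% and 25.2% of all genes were. Ccl5 rose with a log2 fold change of 1.56 ± 0.43 (adjusted p = 0.00821), from 7.12, 3.67, 3.23 and 2.26 CPM to 12.3, 1.60, 11.8 and 26.5 CPM, higher in all libraries but Pax7Cre replicate 2. Cxcl10 rose with a log2 fold change of 1.05 ± 0.18 (adjusted p = 0.00027) and Cxcl9 fell by 1.0 ± 0.27 (adjusted p = 0.00731). With gates on thinned cells Ccl5 reversed to a log2 fold change of -0.67 (adjusted p = 0.156) and Cxcl9 to 0.60 (adjusted p = 0.0264), and Cxcl10 kept its direction at 1.65. The calls of Ccl5 and Cxcl9 were also lost without miR-501KO replicate 2 (adjusted p = 0.0824 and 0.0588) and in DESeq2 (0.234 and 0.0895), and that of Cxcl9 without the block (0.161). Between genotypes 0 genes of any of these lists were called in edgeR. Cxcl9 lay at 4.41, 7.86, 19.8 and 11.3 CPM in uncommitted cells (log2 fold change 1.28 ± 0.25, adjusted p = 0.184), with both miR-501KO libraries above both controls. It passed in DESeq2 (adjusted p = 0.0197) and with the run as a block in edgeR (adjusted p = 5.3e-07). The latter p-value rests largely on variance pooled over genes.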

How the data were processed

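Single-cell libraries of sorted MPs were made with 10x Genomics 3′ chemistry. The authors deposited raw UMI counts per gene and barcode, with no normalization. The submitters' processing notes name Cell Ranger, Seurat and GRCm39, and the annotation is not given in the sources used here.

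A cell needed 5000 UMIs and 1000 genes, and no doublets were removed, so a droplet with 2 cells can carry UMIs of both. Gates used at least 1 UMI of Pax7, Myog or Mki67, which grows with depth, so gates on cells thinned to 5000 UMIs were an alternative. Clusters (scanpy 1.11.5, 2000 variable genes, 30 components, 15 neighbours, Leiden resolution 0.5) were made without 108 listed interferon genes and named from at least 3 markers that were raised 1.5 times and present in 10% of cells. A cluster with over 90% of its cells in 1 library was called a single-library cluster. Counts were summed per library and gate and tested in edgeR 4.0.16 (TMM, filterByExpr, quasi-likelihood, R 4.3.3), with Benjamini-Hochberg adjustment over all genes tested and 0.05 as the threshold. The SE of an edgeR fold change was taken as its absolute log2 value over the square root of the F statistic of that test. The tests were also run on simulated counts that held no library or run effect, so that check does not cover an outlying library. The p-values of the genotype tests measure the spread between libraries, each a pool of 3 mice. With 2 libraries a genotype they rest largely on variance pooled over genes, and still more so with the run as a block. Those of tests with the library as a block measure how the difference between gates varies over libraries.

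Alternatives were DESeq2 1.42.0, RLE factors or library totals in place of TMM, no filter on low counts, a block for run (or no block for library), thinned gates, leaving out each library, non-myogenic clusters or single-library clusters, a minimum of 2000 UMIs, and at most 10% mitochondrial UMIs. Leaving out both kinds of cluster, arm levels without non-myogenic clusters and a crossed block were added after seeing the data. Replicates of a genotype were no duplicates (chi-square per df of 36.1 to 128 over genes). The run 1 minus run 2 differences of the genotypes correlated over genes at -0.221 in uncommitted, 0.287 in committed and 0.0187 in all cells.

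The members, arms and lists were chosen with earlier results of these data known. All members were named with their level, and in each comparison up to 6 members per direction past the threshold by size, or the 3 of lowest p where fewer than 3 passed. Applying this in each arm was decided after the values were seen. Pathway lists were given by counts with the 3 genes of most UMIs. A gene of these lists is not reported here. Members named for a class or a pattern, and the pathway genes with a fold change, were chosen after their values were seen.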

Additional observations from a re-analysis of the deposited data

How the results depend on the processing

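Over the alternatives, 354 recomputed counts and levels stayed within 1.5 times or 1 SD of the value reported, and 34 moved. Many of the former could not have moved. A count of 0 in both fits was taken as unmoved, and leaving out 1 library cannot shift a mean over libraries by 1 SD. Among arm medians and named members, 733 results stayed and 23 medians moved. For named members 32 calls were lost, 11 were gained and 1 fold change reversed. With DESeq2, 1 gamma arm member was called higher between genotypes over all cells and 1 in committed cells. In uncommitted cells, no filter on low counts gave 3 gamma arm and 2 type I members higher, where 0.564% of all genes were higher and 0.153% lower. Leaving out 1 library gave 0 to 4 and 0 to 2, with 4 gamma arm members without Pax7Cre replicate 2 or miR-501KO replicate 2 and 2 type I members without miR-501KO replicate 2. For the interaction, no filter gave 1 type I member higher (0.0402% of all genes higher and 0.0151% lower) and leaving out 1 library 0 to 2. In the comparison of committed with uncommitted cells, thinned gates gave 14 gamma arm members lower and 0 type I members higher (24.4% of all genes lower and 25.3% higher), non-myogenic clusters left out gave 0 type I members higher, and both kinds of cluster left out gave 15 and 0. Irf7 then reversed to -0.16 on the log2 scale. Leaving out 1 library gave 1 to 3 gamma arm members higher there, with 1 without Pax7Cre replicate 1 or miR-501KO replicate 1. With library totals the split over all genes moved from 4010 higher and 3782 lower to 3149 and 4717, with an all-gene median of -0.13. By Mki67, thinned gates gave 8 gamma arm members lower and 1 higher and 4 type I members lower, and no filter gave 1 gamma arm member higher (19.6% of all genes higher). The cause of these shifts was not tested.

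The replicate block by run called 2 gamma arm members in uncommitted cells and changed no other genotype call of a member, and the crossed replicate block called 1 (0.0937% of all genes higher and 0.0144% lower). Without the replicate block by library, 1 type I member was higher and 3 lower with commitment (27.3% and 25.3% of all genes), and 4 were lower in Mki67+ cells (15.5%).

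The gamma arm mean in committed cells was 196 CPM without non-myogenic clusters, against 251 CPM. Shares of cells with a UMI rise with depth. For the gamma arm they averaged 71.2% of uncommitted and 56.0% of committed cells at 5000 UMIs, 86.4% and 73.9% at 10000 UMIs, and 97.4% and 91.0% of unthinned cells. For the type I arm they averaged 47.8% of uncommitted cells at 5000 UMIs, 64.5% at 10000 and 87.0% unthinned, and 80.6% of committed cells unthinned against 44.4%. Members under 1 CPM (Tgtp1, Gbp4, Gbp6, Gbp8 and Nlrc5) rest on few UMIs, and their depth limits what their comparisons could show.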

Other observations

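Cells with UMIs of both Pax7 and Myog, which stand between the gates compared above, numbered 3031. The gamma arm summed to 254, 329, 399 and 301 CPM in them and the type I arm without Ifitm3 to 146, 189, 374 and 153 CPM. The gamma arm sum thus lay below that of uncommitted cells in 4 of 4 libraries. Ifit3 lay at 1.37, 1.76, 11.2 and 1.35 CPM, with a single high library. Macrophage-like markers summed to 967 CPM in that library, miR-501KO replicate 1, and to 77.7 to 246 CPM in the others. Outside the single-library clusters, which left 512 of its 801 such cells, the arms summed to 431 and 345 CPM in that library, Ifit3 lay at 10.4 CPM and the markers summed to 369 CPM.

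In the cluster of 659 cells found in miR-501KO replicate 1 alone, the gamma arm summed to 323 CPM and the type I arm without Ifitm3 to 455 CPM. Iigp1 lay at 25.7 CPM, Irf1 at 57.9 CPM and Ifit3 at 13.9 CPM. No other library held such cells, so these values have no replicate.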
